A study of Mus musculus with 4 samples.

Results

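The proteasome genes of the mouse lens were examined in Celf1 cKO and Control animals at postnatal day 6 (P6). Genes were taken by their symbol on the array, namely Psma, Psmb, Psmc, Psmd, Psme, Psmf or Psmg followed by a number, without the immunoproteasome genes Psmb8 and Psmb9. The array held 44 such genes on 79 probes, and 37 genes on 62 probes were detected on at least 2 of the 4 arrays, out of 11516 genes on 16262 probes in all. Total RNA of 1 lens was hybridised to each Illumina MouseWG-6 v2.0 BeadChip, with n = 2 in the Celf1 cKO group (A and B) and n = 2 in the Control group (A and B). The cKO animals carried the germline knockout allele Celf1 lacZKI, the conditional allele Celf1 flox and the Cre transgene Pax6GFPCre. This driver deletes in the lens from its embryonic origin on, and also in the pancreas. The Control animals were Celf1 lacZKI/+, so both groups carried a germline knockout allele of Celf1, an RNA-binding protein that acts on mRNA stability, splicing and translation. The animals had a mixed C57BL/6 and FVB background.

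The proteasome is the barrel-shaped protease that degrades ubiquitin-tagged proteins in every cell. Its core particle stacks outer alpha rings, which hold the gate, on inner beta rings, which hold the cutting sites. The regulatory particle caps the core, with a ring of ATPases that unfolds the substrate and non-ATPase subunits that bind and remove ubiquitin. In the lens, the ubiquitin proteasome pathway is known to act while fiber cells differentiate and lose their organelles.

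Celf1 itself was lower in the cKO lenses, with a log2 signal of 7.45 in cKO A and 6.95 in cKO B against 8.71 in Control A and 8.55 in Control B (log2 fold change -1.43 ± 0.19 (SE), limma adjusted p = 0.0098). A log2 signal here is the array intensity after background correction and quantile normalization. More probes were detected on the cKO arrays (16261 and 16925) than on the Control arrays (14542 and 14180), and their unnormalized intensity was higher (99th percentile 3209 and 3444, against 2158 and 1699 on the Control arrays). Xist, which is expressed from an inactive X chromosome, was at 7.42 and 7.27 in the cKO lenses against 4.26 and 4.39 in the Control lenses, and the Y-linked gene Ddx3y was at 6.81 and 4.83 against 8.99 and 8.82. Xist was above background on the cKO arrays alone, and Ddx3y was above background on all 4 arrays, cKO A included. The sex-linked genes thus varied with genotype, and effects of the 2 cannot be told apart here, though the values of cKO A do not settle its sex. All 6 lens fiber markers were tested and Bfsp2 was lower, while 3 of 4 lens epithelium markers were tested and Foxe3 and Pdpn were lower. Unnormalized intensity was also summed over all probes of a list, detected or not, so the sums include background and the brightness of each array. For the fiber list the sum was 186015 and 185693 in the cKO lenses against 189540 and 157132 in the Control lenses. For the epithelium list it was 1337 and 1206 against 1300 and 1064. The part of these cell types in the results was not tested.

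Calls needed 3 things of a gene, namely a limma adjusted p below 0.05, a log2 fold change beyond 0.58 in either direction and a mean log2 signal above 4.6. These were met by 11.6% of all genes, 6.01% as higher and 5.64% as lower in the cKO lenses. Of the 37 proteasome genes, 2 were called (5.41%), both of them higher. An adjusted p under 0.05 alone was met by 12.4% of all genes and by 3 proteasome genes. The fitted log2 fold change was above 0 for 25 proteasome genes (67.6%) and below 0 for 12, beside 51.1% above 0 over all genes. Its median was 0.097 against 0.0097 over all genes. The difference of these medians, 0.087, lay above 0 in every alternative run (0.060 to 0.31). Runs that changed only the variance model, fold threshold or replicate letter could not move it. Runs that only shifted whole arrays, or left them unscaled, share a single value of it by construction. Both cKO values lay above both Control values for 16 of the 37 genes (43.2%) and below them for 6 (16.2%), and the groups overlapped for 15. Over all genes, 32.6% lay above and 29.7% below.

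**Figure D1:**
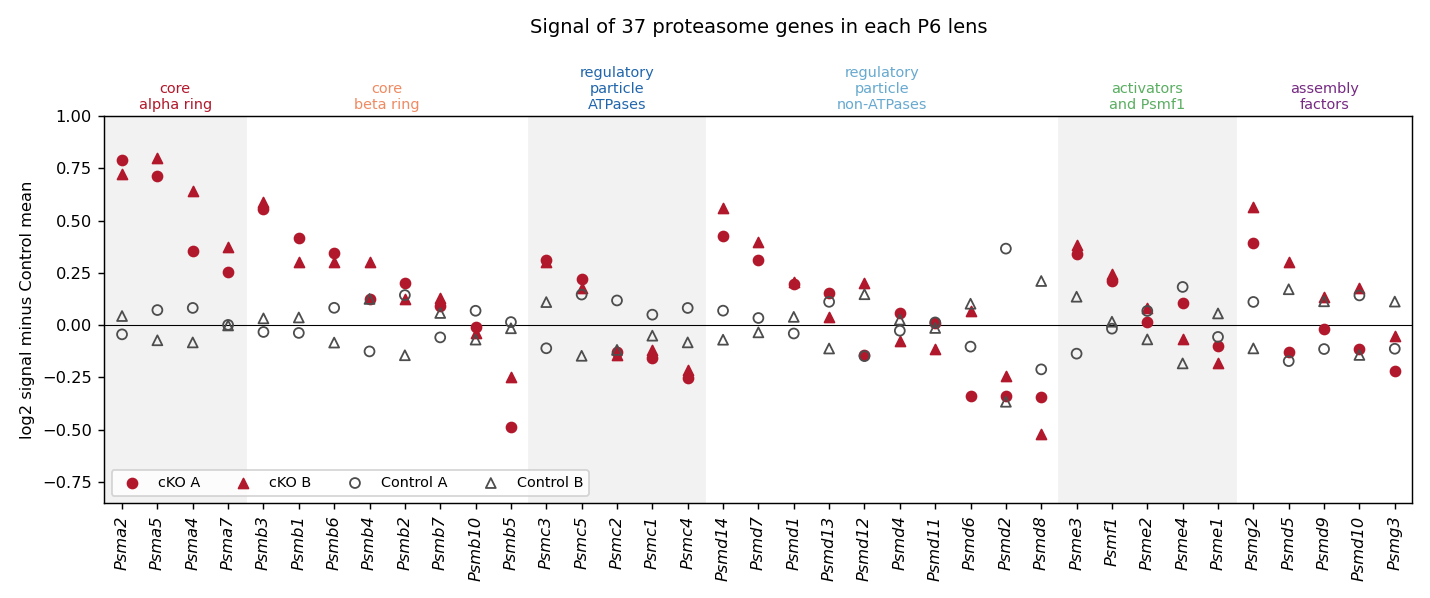
Log2 signal of each of the 37 detected proteasome genes in each lens, drawn as the difference from the mean of the Control lenses (vertical axis), with genes grouped by their place in the proteasome. Filled red symbols are the cKO lenses and open grey symbols the Control lenses. The cKO symbols lie above the Control symbols for all 4 alpha ring genes and below them for Psmb5.

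Of the classes, the alpha ring had the highest median log2 fold change. Both called genes, Psma2 and Psma5, encode alpha subunits, which form the outer rings and the gate and do not cut proteins themselves. All 4 detected alpha genes had both cKO values above both Control values, beside 32.6% of all genes, and the class median was 0.63. The other alpha genes on the array, Psma1, Psma3, Psma6 and Psma8, were not detected, with a lowest detection p of 0.474 to 0.762 and a highest unnormalized intensity of 42.5 to 45.5, so nothing is known here of the rest of the ring.

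Each of the called genes was measured by a single detected probe. The first 30 of 50 bases of these probes are shown because both calls rest on them.

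Psma2: gggattacctggctgccatagcgtgatgaa
Psma5: gaaggagccgtcctcgaacttctgtgggac

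The log2 signal of Psma2 was 12.81 in cKO A and 12.74 in cKO B, against 11.97 in Control A and 12.06 in Control B. The groups did not overlap, and the gene was 1.69-fold higher in the cKO lenses (log2 fold change 0.76 ± 0.14 (SE), limma adjusted p = 0.0199). Before normalization its intensity was 8329 and 8776 in the cKO lenses against 3456 and 2954 in the Control lenses, a wider gap. The cKO arrays were brighter at the upper end of unnormalized intensity, though not for every probe. Psma5 was at 12.57 and 12.65 in the cKO lenses, against 11.92 and 11.78 in the Control lenses. It too was 1.69-fold higher with no overlap (log2 fold change 0.76 ± 0.14, limma adjusted p = 0.0213). Without the detection filter, an undetected second probe entered the mean of Psma5, which fell to 0.47 relative to all genes and was not called. Neither call held when any lens but Control A was left out, and over the 4 fits without a lens the limma adjusted p ranged from 0.047 to 0.11 for Psma2 and from 0.038 to 0.14 for Psma5. Their log2 fold changes relative to all genes ranged from 0.655 to 0.841 and from 0.665 to 0.843.

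The other alpha genes did not pass the test. Psma4 was at 10.94 and 11.22 in the cKO lenses against 10.66 and 10.50 in the Control lenses (log2 fold change 0.50 ± 0.16, limma adjusted p = 0.084). Psma7 was at 10.24 and 10.36 against 9.98 and 9.98 (0.32 ± 0.14, limma adjusted p = 0.16), and its probes gave 0.39 and 0.24. The 95% interval of the log2 fold change reached from 0.12 to 0.88 for Psma4 and from -0.0074 to 0.64 for Psma7.

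The beta ring lines the inner chamber, and its 8 detected genes had a median log2 fold change of 0.19 with 0 called. Psmb3, a structural beta subunit without a cutting site, came closest. Its log2 signal was 12.20 in cKO A and 12.23 in cKO B, against 11.61 in Control A and 11.67 in Control B. The groups did not overlap and the adjusted p was under 0.05, but the fold stayed just under the threshold (log2 fold change 0.57 ± 0.13, limma adjusted p = 0.0394). Relative to all genes it was at 0.56, at 0.22 without the detection filter, where an undetected second probe entered the mean, and at 0.78 when arrays were shifted to a common median or left unscaled. The probe of Psmb3 begins as follows.

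Psmb3: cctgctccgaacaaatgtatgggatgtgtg

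The 3 standard cutting subunits did not move alike in value, and none was called. Psmb5, which holds the chymotrypsin-like site, was at 9.26 and 9.49 in the cKO lenses against 9.76 and 9.73 in the Control lenses, with both cKO values below both Control values. Its log2 fold change was -0.37 ± 0.15 with a 95% interval from -0.72 to -0.019 (limma adjusted p = 0.14). Psmb6, which holds the caspase-like site, was at 11.31 and 11.27 against 11.05 and 10.88, with both cKO values above (0.32 ± 0.14, limma adjusted p = 0.17). Psmb7, which holds the trypsin-like site, had a log2 fold change of 0.11 ± 0.14, and its 4 probes ranged from -0.042 to 0.17. Differences between these genes were not tested. Psmb10, the immunoproteasome counterpart of Psmb7, was at 7.55 and 7.52 in the cKO lenses and at 7.62 and 7.49 in the Control lenses, and the groups overlapped (-0.024 ± 0.14). Relative to all genes Psmb5 was at -0.3789 in the main analysis, and at -0.0935 when arrays were shifted to a common median or left unscaled. The probe behind the Psmb5 value is shown because this gene lies opposite to most of its ring.

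Psmb5: cgctaacatggtgtatcagtacaaaggcat

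Of the structural beta genes, Psmb1 had both cKO values above the Control values (log2 fold change 0.36 ± 0.14, limma adjusted p = 0.13). Psmb2 (0.16 ± 0.16) and Psmb4 (0.21 ± 0.16) had overlapping groups. The thymus-type subunit gene Psmb11 was not detected. In the core particle as a whole, 10 of 12 genes had a log2 fold change above 0 (83.3%), beside 51.1% of all genes. Both cKO values lay above the Control values for 8 of them (66.7%), beside 32.6% of all genes, and the median was 0.32.

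**Figure D2:**
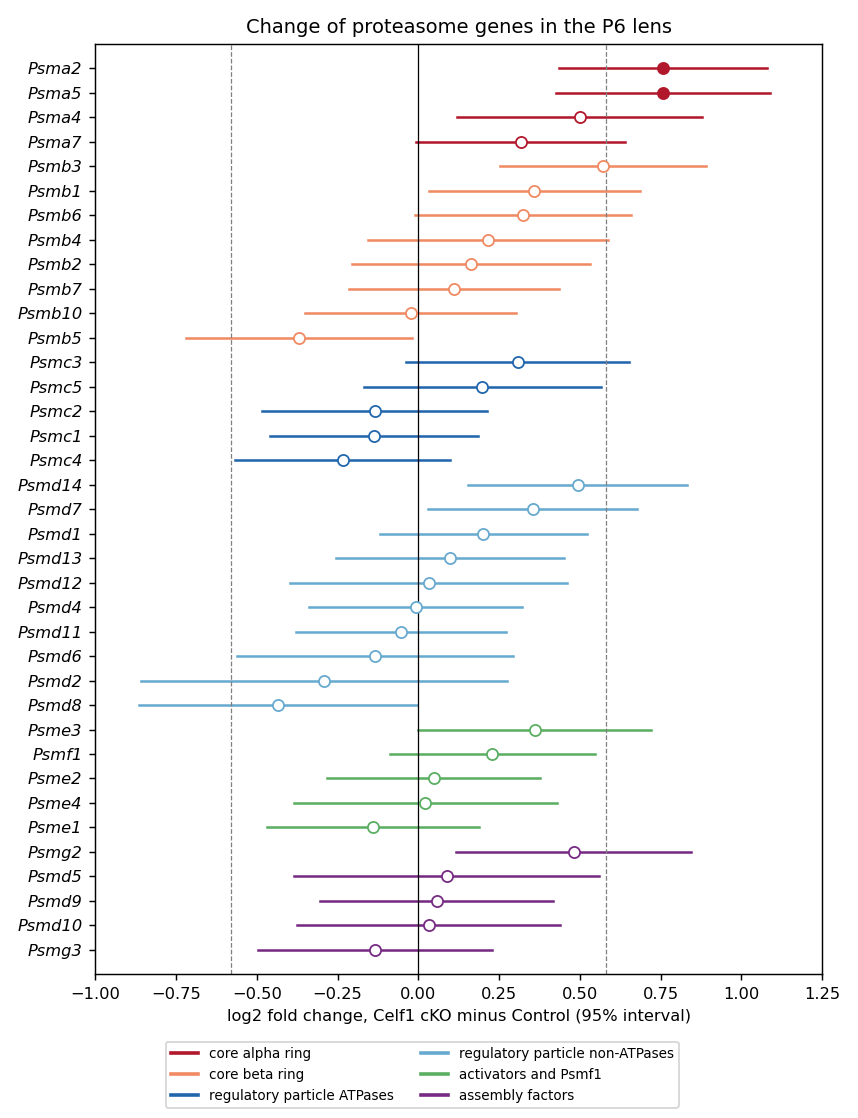
Log2 fold change of each of the 37 proteasome genes, cKO minus Control, with its 95% interval from the limma fit (horizontal axis); colours give the class, filled points are called genes and dashed lines mark the fold threshold of 0.58. The 2 filled points are Psma2 and Psma5 at 0.76, and Psmb3 at 0.57 lies next to the threshold.

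The regulatory particle had a median log2 fold change of -0.0083 over its 15 detected genes, 7 above 0 and 8 below, and 0 were called. The ATPases form the unfolding ring at its base. Psmc3 was at 11.05 and 11.04 in the cKO lenses against 10.63 and 10.85 in the Control lenses, with no overlap (log2 fold change 0.31 ± 0.15, limma adjusted p = 0.20). Psmc5 also had both cKO values above (0.20 ± 0.15), while Psmc1 (-0.14 ± 0.14), Psmc2 (-0.14 ± 0.15) and Psmc4 (-0.23 ± 0.14) had both below. Psmc6 was not detected on any of the arrays.

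The value of Psmc4 depended on the probe. Probe 1, designed to a predicted transcript, was at 4.94 and 5.31 in the cKO lenses against 5.74 and 5.70 in the Control lenses, a log2 fold change of -0.60 (limma adjusted p = 0.068 over probes). Probe 2, designed to the curated transcript, was at 12.07 and 11.78 against 11.94 and 11.65, and its groups overlapped (0.13, limma adjusted p = 0.67). They are the only pair of probes of a proteasome gene that differed by over 0.58. With the probe of higher signal alone, Psmc4 was at 0.13 relative to all genes.

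Psmc4 probe 1: tcctggaagtgcaggaggagtatatcaagg
Psmc4 probe 2: ccccaggcacctgtcccaaaggctagtttt

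The non-ATPase subunits build the lid and the ubiquitin-binding parts of the cap, and 0 of the 10 detected genes were called. Psmd14, the deubiquitinase that clips ubiquitin off the substrate, was at 7.05 and 7.18 in the cKO lenses against 6.69 and 6.55 in the Control lenses. Its groups did not overlap and the adjusted p lay above the threshold (log2 fold change 0.49 ± 0.14, limma adjusted p = 0.064). Its probes gave 0.74 and 0.25, and the groups overlapped for the second. Psmd7, which pairs with Psmd14 in the lid, was at 7.89 and 7.98 against 7.62 and 7.55 (0.35 ± 0.14, limma adjusted p = 0.13).

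Psmd7 was measured by 3 probes that differed in size of change. Probe 1 was at 8.74 and 9.07 in the cKO lenses against 8.61 and 8.33 in the Control lenses (log2 fold change 0.43). Probe 3, of the highest signal, was at 9.38 and 9.46 against 9.33 and 9.44, with overlapping groups (0.034). Probe 2, of the lowest signal, was at 5.56 and 5.42 against 4.91 and 4.88 (0.60). Probe 2 alone passed the call rule at the probe level (limma adjusted p = 0.0471 over probes).

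Psmd8, a lid subunit, was at 6.85 and 6.68 in the cKO lenses against 6.99 and 7.41 in the Control lenses, with both cKO values below (log2 fold change -0.43 ± 0.18, limma adjusted p = 0.15). This mean joined unlike probes. Probe 1 was above background on both Control arrays (4.75 and 5.40) and on neither cKO array (4.38 and 4.37), so that its difference has no measured fold. Probe 2 was detected on all 4 arrays and overlapped, at 9.32 and 8.98 against 9.23 and 9.42 (-0.17, limma adjusted p = 0.57 over probes). Relative to all genes, Psmd8 was at -0.44 in the main analysis, -0.14 with probes detected on all arrays, -0.079 without Control B, -0.29 without Control A and -1.02 with the deposited normalized values.

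Psmd8 probe 1: ctcggttctgagatagcaggaagaggagat
Psmd8 probe 2: gggactcttctatccagctgtggatgcgtt

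Of the other non-ATPase genes, the scaffold gene Psmd1 had both cKO values above (log2 fold change 0.20 ± 0.13). The second scaffold gene, Psmd2, was at 4.89 and 4.98 in the cKO lenses and at 5.59 and 4.86 in the Control lenses, so that its value of -0.29 ± 0.24 rested on Control A. The ubiquitin receptor gene Psmd4 was at -0.0083 ± 0.14. The lid genes Psmd6 (-0.14 ± 0.18), Psmd11 (-0.053 ± 0.14), Psmd12 (0.032 ± 0.18) and Psmd13 (0.097 ± 0.15) all had overlapping groups. Psmd3 was not detected.

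The activators cap the core in place of the regulatory particle, and 0 of these 4 genes and of Psmf1 were called. Psme3, whose product forms the nuclear activator ring, was at 8.38 and 8.42 in the cKO lenses against 7.91 and 8.18 in the Control lenses, with no overlap (log2 fold change 0.36 ± 0.15, limma adjusted p = 0.16). Psme1 and Psme2 together form the interferon-inducible activator. Psme1 was at 8.97 and 8.88 in the cKO lenses against 9.01 and 9.12 in the Control lenses, with both cKO values below (-0.14 ± 0.14). Psme2 had overlapping groups (0.048 ± 0.14). Psme4, a large single-chain activator, was at 0.022 ± 0.17. Psmf1, which encodes a regulator first known as an inhibitor of the core, was at 7.67 and 7.70 against 7.44 and 7.47, with both cKO values above (0.23 ± 0.13, limma adjusted p = 0.28).

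The assembly factors help the rings to form and leave the finished particle, and 0 of the 5 genes were called. Psmg2, a chaperone of alpha ring assembly, was at 7.73 and 7.91 in the cKO lenses against 7.45 and 7.23 in the Control lenses. Its groups did not overlap (log2 fold change 0.48 ± 0.15, limma adjusted p = 0.082), and its 3 probes lay within 0.46 to 0.50. The other 4 genes had overlapping groups. They were the core chaperone Psmg3 (-0.13 ± 0.15) and the chaperones of the ATPase base Psmd5 (0.087 ± 0.20), Psmd9 (0.057 ± 0.15) and Psmd10 (0.032 ± 0.17), the last of which is X-linked.

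**Figure D3:**
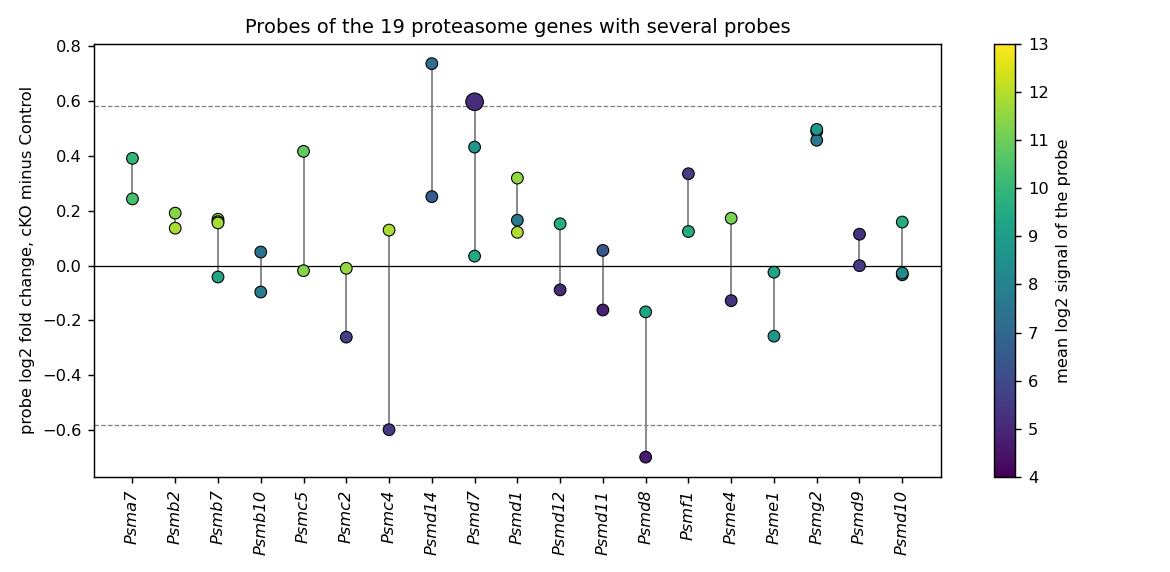
Log2 fold change of each detected probe, cKO minus Control (vertical axis), for the 19 proteasome genes with more than 1 detected probe; a grey line joins probes of a gene, colour gives the mean log2 signal of the probe, the large point is the called Psmd7 probe and dashed lines mark 0.58. All probes pointed the same way in 10 of the 19 genes, and those of Psmc4 and Psmd8 spread widest towards negative values.

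At the level of probes, 3 of 62 proteasome probes were called, beside 11.5% of all probes. They were those of Psma2, Psma5 and Psmd7, all higher in the cKO lenses, and 40 of the 62 probes had a log2 fold change above 0. The share above 0 was taken over all genes (51.1%) and not over all probes. In genes with several probes the median difference between the extreme probes was 0.22. Each value rested on at least 12 beads, with a median of 36.5, and the median bead error was 3.99% to 8.29% of the signal per array, the largest on Control B. The interval of the log2 fold change lay within ±0.58 for 21 of the 37 genes.

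Signal strength was unevenly spread over the classes, and the fold changes are shown against it. The core genes were mostly measured at high signal, with a median log2 signal of 11.2 for the core particle and 8.62 for the regulatory particle. Among all 190 genes with a log2 signal over 12, the median log2 fold change was -0.025 and 4.21% were called higher. The 4 proteasome genes in that range, Psma2, Psma5, Psmb4 and Psmd4, had a median of 0.49, and 2 of them were called, both higher. Among the 467 genes between 10 and 12 the median was -0.014 and 15.4% were called, 7.92% as higher, and the 11 proteasome genes there had a median of 0.31 with 0 called. At lower signal, with 0 proteasome genes called, their medians were -0.14 for 8 genes between 8 and 10 (0.0052 over all genes there), 0.048 for 9 genes between 6 and 8 (0.0019) and -0.054 for 5 genes under 6 (0.021). Over all genes, 17.1% were called between 8 and 10, 14.6% between 6 and 8 and 8.12% under 6.

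**Figure D4:**
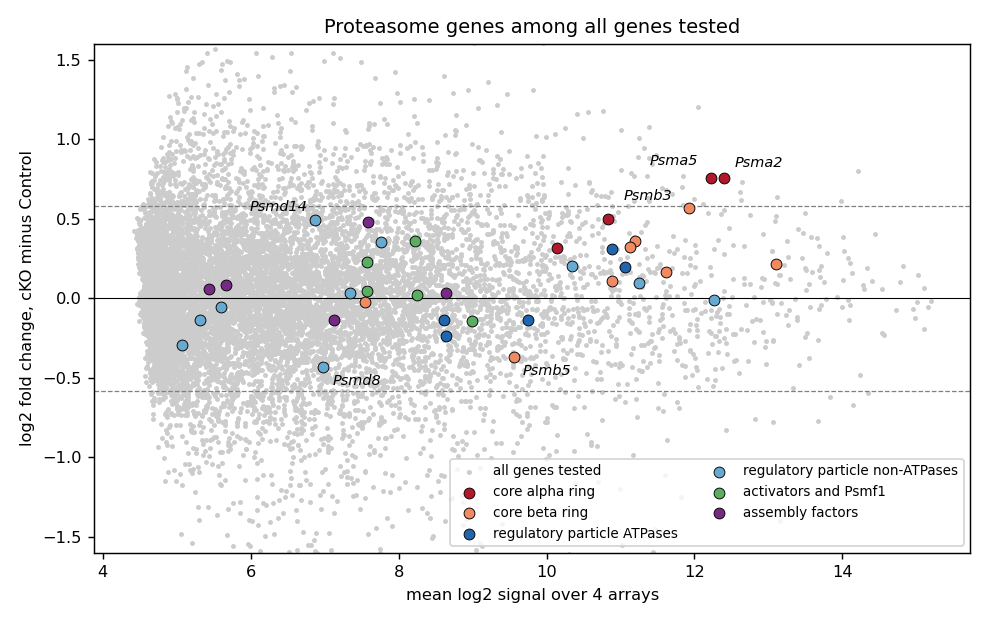
Log2 fold change, cKO minus Control (vertical axis), against the mean log2 signal over the 4 arrays (horizontal axis) for all genes tested (grey) and the 37 proteasome genes (coloured by class); the vertical axis ends at ±1.6, beyond which 99 genes lie. Psma2 and Psma5 lie above the dashed line at 0.58 at high signal, and Psmb5 lies at -0.37. The value of Psmd8 includes a probe above background in the Control lenses alone.

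The classes were then compared under each way of processing, since the scaling between arrays sets where 0 lies. Relative to the median of all genes, the alpha ring was at 0.62, the beta ring at 0.18, the ATPases at -0.15, the non-ATPases at 0.0020, the activators with Psmf1 at 0.038 and the assembly factors at 0.047. The alpha ring stayed between 0.49 and 0.80 throughout and the beta ring between 0.080 and 0.38. The ATPases turned to 0.14 when arrays were only shifted or left unscaled. Relative to all genes these scalings give the same values by construction, so they count as a single result. Setting arrays to a common median over all probes, or using no normalization, moved the median of all genes to 0.53 and 0.57, and 29 and 30 proteasome genes were then called beside 47.0% and 50.3% of all genes. With a common median over probes detected on all arrays, the median of all genes was -0.19, and Psma2, Psma5 and Psmb3 were called higher and Psmd2 and Psmd8 lower beside 23.4% of all genes. With the deposited normalized values, none of the 37 genes was called (0, beside 7 of all genes), nor was any with 16 added to them (0, beside 1190 of all genes, or 10.3%). No test was made of a difference between classes.

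**Figure D5:**
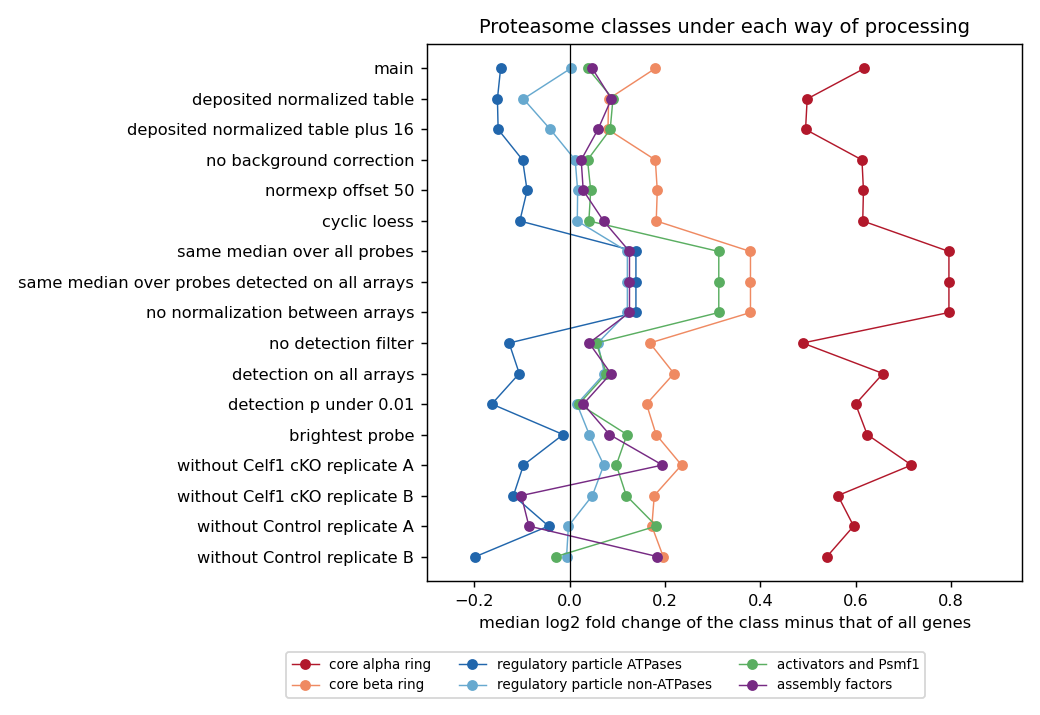
Median log2 fold change of each proteasome class minus the median of all genes (horizontal axis) under the main processing and 16 other ways of processing or sets of lenses (rows); colours give the class and lines join the values of a class. The alpha ring lies to the right in every row, from 0.49 to 0.80, and the ATPases lie above 0 only in the 3 rows in which arrays were shifted to a common median or left unscaled. Those 3 rows hold the same values by construction, since a shift of whole arrays cancels against the median of all genes.

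Promoters were searched for letters linked to proteasome gene control. Nfe2l1, which drives proteasome genes when proteasome activity is short, and Nfe2l2 bind the antioxidant response element, here TGACNNNGC. The window reached from 250 bases before to 50 bases after the RefSeq start site (GRCm38.p6), both strands were read, and 31 of the 37 genes had a promoter in the table. The element was in 5 of 31 genes (16.1%), Psmb5, Psmb6, Psmd9, Psmd12 and Psme4, and in 16.5% of the 8072 tested genes with a promoter. The CCAAT box, the letters bound by nuclear factor Y, was in 9 of 31 (29.0%) against 43.3%. The nuclear respiratory factor 1 letters GCGCATGC were in 2 of 31 (6.45%), Psma2 and Psmc5, against 5.87%. Psma5 held none of the 3. The shares carry no test, and a match is a run of letters and not a measured site.

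The promoter stretches of Psma2, Psmb3 and Psmb5 are given because these genes carry the higher and lower core values, with the matches of 1 motif for each gene and 20 bases on either side, and with the matches in capitals. Psma2 (chr13:14613032-14613144, plus strand) held GCGCATGC or its reverse complement at 4 places, the last 2 of which overlap. It also held CCAAT at 52 bases before the start site, outside the stretch shown. Psmb3 (chr11:97703329-97703415, plus strand) held CCAAT at 2 places, and Psmb5 (chr14:54618014-54618062, minus strand) held the antioxidant response element at 1 place.

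Psma2 promoter: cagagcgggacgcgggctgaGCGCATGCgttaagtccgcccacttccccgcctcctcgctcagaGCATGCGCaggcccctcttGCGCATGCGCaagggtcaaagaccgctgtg
Psmb3 promoter: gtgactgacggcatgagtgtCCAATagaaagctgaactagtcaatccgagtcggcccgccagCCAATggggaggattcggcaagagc
Psmb5 promoter: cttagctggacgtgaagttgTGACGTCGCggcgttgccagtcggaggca

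Other genes of the proteasome and its supply were read from a separate list of 26 genes, of which 20 were tested, 3 were not detected and 3 had no probe. None of the 20 was called by limma (0 higher, 0 lower), beside 11.6% of all genes, and 5 had an unadjusted p under 0.05 (25.0%, beside 31.9% of all genes). Above 0 were 14 of the 20, beside 51.1% of all genes, and the median was 0.10. Nploc4, a cofactor of the segregase Vcp that pulls ubiquitin-tagged proteins out of complexes, had an adjusted p under 0.05 with a fold under the threshold (log2 fold change 0.54 ± 0.14, limma adjusted p = 0.0492). Vcp itself was at -0.075 ± 0.14.

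Nfe2l1 was at 10.08 and 10.40 in the cKO lenses against 9.05 and 9.85 in the Control lenses. Both cKO values were above, but the Control lenses lay far apart and the test was not passed (log2 fold change 0.79 ± 0.27, limma adjusted p = 0.095). Its relative Nfe2l2 was at 0.16 ± 0.16. Pomp, the chaperone of beta ring assembly, was at 12.36 and 12.47 against 12.66 and 12.62, with both cKO values below (-0.23 ± 0.14, limma adjusted p = 0.30). Ecpas, which binds the 26S proteasome, was at 6.68 and 6.61 against 6.20 and 5.82 (0.64 ± 0.17, limma adjusted p = 0.0521).

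Markers of other cells were read beside these values, since a lens sample can carry neighbouring tissue, and since in bulk RNA more cells of a type cannot be told apart from more RNA per cell. Of the macrophage markers 2 of 4 were tested. Cd68 was called higher (limma adjusted p = 0.0376). It was above background on the cKO arrays alone, so its difference has no measured fold. Csf1r was above background on all 4 arrays and was not called, with overlapping groups (log2 fold change -0.11). Adgre1 and Ptprc were not detected. The summed unnormalized intensity of the 4 macrophage markers, over all probes whether detected or not, was 426 and 451 in the cKO lenses against 412 and 366 in the Control lenses. Of the interferon response genes, which include inducers of the immunoproteasome, 3 of 5 were tested and none was called. Blood (2 of 3 tested), vessels (3 of 3) and retina (1 of 4) had no called gene, with summed intensities of 4288 and 2235 against 2296 and 1552 for blood, 371 and 380 against 332 and 280 for vessels, and 206 and 209 against 196 and 169 for retina. No pigment cell or muscle marker was detected on the 2 arrays needed, and Dct and Tyrp1 of the pigment cells were each detected on 1 array. The part of these cells in the proteasome values was not tested.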

How the data were processed

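Total RNA of P6 mouse lenses was measured on MouseWG-6 v2.0 BeadChips. The authors deposited an unnormalized and a rank-invariant normalized table of signal intensity, each with a detection p-value per probe and array. The deposited tables also hold bead numbers and bead standard errors (other values). Each table had 45281 probes, and 18 lines with shifted cells were left out. Probes were named through RefSeq (GRCm38.p6) by Entrez identifier (29586), accession (2759), symbol (2197) or older symbol (2377), and 8344 kept the symbol of the files.

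The unnormalized intensity was background corrected and quantile normalized on a log2 scale by the neqc function (limma version 3.58.1 under R version 4.3.3, offset 16). A probe was kept if its detection p was under 0.05 on at least 2 arrays, and probes of the same gene were averaged. Groups were compared with lmFit and eBayes, in two-sided tests, and p-values were adjusted by Benjamini-Hochberg over 11516 genes and, separately, over 16262 probes. The fold, adjusted p and signal thresholds and the rule of 2 arrays follow the study's methods. Its edgeR model is for counts and was not used on intensities. The fit was tested on simulated data. Samples are grouped by the genotype label. The labels do not say whether lenses of a group share an animal, and the methods give 1 lens per biological replicate. The number of arrays limits the precision, and an exact permutation test of 2 against 2 cannot go below 0.333. Tables were read with Python version 3.11.15 (pandas version 2.3.3).

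The genes and lists were chosen with earlier results of these data known, so no list was tested as a set. Proteasome genes described beyond the call rule were named so that each of the 37 is accounted for. The alternatives covered the table, background correction, scaling, detection filter, several probes, variance model, fold threshold, replicate letter and each array left out. Probe positions are not given because the files name no genome build. Some other genes of the separate list and some probe sequences are not reported here.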

Additional observations from a re-analysis of the deposited data

How the results depend on the processing

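The number of proteasome genes called was 2 in the main analysis (beside 11.6% of all genes) and in 8 of the other ways of processing (6.85% to 15.2%). It was 3 with cyclic loess (11.6%) or no fold threshold (12.4%) and 1 without a detection filter (0.718%). It was 0 with the deposited table (0.0608%), the deposited table plus 16 (10.3%) or treat (0.747%). It rose to 5 with a common median over detected probes (23.4%), 29 over all probes (47.0%) and 30 with no normalization (50.3%). With a lens left out, the lone lens left in a group was assumed to vary like the other group, so this section gives only fold changes of those fits. Relative to all genes, the median of the proteasome genes was 0.060 in the deposited table plus 16, 0.31 under the 3 scalings that only shift arrays or leave them unscaled, 0.13 with detection on all arrays, 0.12 with the brightest probe and 0.12 to 0.19 with a lens left out. The alpha ring was at 0.50 in the deposited table, 0.49 with 16 added, 0.80 under the 3 scalings, 0.49 without a detection filter and 0.54 to 0.72 with a lens left out. The beta ring was at 0.082, 0.080, 0.38 and 0.17 in the same order, 0.22 with detection on all arrays, 0.16 at a detection p under 0.01 and 0.17 to 0.23 with a lens left out. The ATPases were at 0.14 under the 3 scalings, -0.014 with the brightest probe and -0.20 to -0.045 with a lens left out. The non-ATPases were at -0.097 in the deposited table, -0.041 with 16 added, 0.011 without background correction, 0.017 with normexp, 0.016 with cyclic loess, 0.12 under the 3 scalings, 0.059 without a detection filter, 0.073 with detection on all arrays, 0.015 at a detection p under 0.01, 0.041 with the brightest probe and -0.0068 to 0.071 with a lens left out. The activators with Psmf1 were at 0.31 under the 3 scalings, 0.12 with the brightest probe and -0.029 to 0.18 with a lens left out, and the assembly factors at -0.10 to 0.19 with a lens left out. Over the ways of processing with all lenses, the activators with Psmf1 ranged from 0.019 to 0.31 and the assembly factors from 0.024 to 0.13. Psmb10 turned to 0.019 in the deposited table, 0.017 with 16 added, 0.24 under the 3 scalings, 0.0057 with detection on all arrays and 0.021 without Control A. Psmg3 turned to 0.10 under the 3 scalings, Psmc4 to 0.13 with the brightest probe, and Psmd10 to -0.10 without cKO B and -0.12 without Control B. These are genes of the naming rule, and over all 37 genes the sign relative to all genes turned in at least 1 alternative for 18, with 14 turning in a way of processing and 12 with a lens left out. The other 14 of the 18 were Psmb4, Psmc1, Psmc5, Psmd2, Psmd4, Psmd5, Psmd6, Psmd9, Psmd11, Psmd12, Psmd13, Psme1, Psme2 and Psme4, and none of the 18 was called in the main analysis. The causes were not tested.

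The A minus B differences of the cKO and Control groups correlated at -0.011 across genes. This value cannot decide whether lenses with the same letter were paired, since the labels give only the letters. With the letter as a replicate block, 2 proteasome genes were called, as in the main analysis, beside 1685 genes in all.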

Other observations

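Genes with related names lay outside the 37. Psmg1, a chaperone of alpha ring assembly and partner of Psmg2, is listed on the array under an older symbol and so was not taken by the naming rule. It was at 7.99 and 8.06 in the cKO lenses against 8.62 and 8.47 in the Control lenses, with both cKO values below (log2 fold change -0.52 ± 0.14, limma adjusted p = 0.0565). Psme2b, likewise under another name, was at 0.034 ± 0.18. The immunoproteasome gene Psmb8 was at 4.86 and 4.75 against 4.58 and 4.31 and was above background on the cKO arrays alone, so that its difference has no measured fold. Psmc3ip, which encodes a partner protein of meiotic recombination and is no subunit, was at 7.75 and 7.96 against 6.48 and 7.86, and its groups overlapped (0.69 ± 0.40, limma adjusted p = 0.28).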
